A study of Mus musculus with 18 samples.

Results

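Hmga1, Hmga2, Igf2bp1, Igf2bp2, Igf2bp3, Lin28a, Lin28b and Mycn are fetal growth genes that many tumours express again, and they are textbook targets or partners of the let-7 microRNAs. These 8 genes were chosen by name, for that shared control and with earlier results of these data known, from the 55453 gene rows of the count table. Their levels were followed in GFP+ fibroblasts of the neonatal mouse heart by bulk RNA sequencing, which counts the reads that fall on each gene. The Tcf21-MerCreMer; Rosa-mTmG pups, heterozygous for both alleles (MerCreMer/+ and mTmG/+) and labelled C57BL/6J, received tamoxifen at P1, so membrane GFP marks cells that expressed the Tcf21 driver around birth together with their descendants, and only GFP+ sorted cells were sequenced. P2 baseline and P10 baseline came from un-manipulated pups. P2 resected +3 days and P10 resected +3 days came from pups given apical resection at the named age and collected 3 days later, and P2 sham +3 days and P10 sham +3 days from pups with sham surgery in its place. Each of the 6 groups had 3 libraries. The number of pups and their sex in each library are not given in the sources used here, so p-values measure only the spread between these libraries. The 3 P2 groups are called the P2 (regenerative) window and the 3 P10 groups the P10 (non-regenerative) window.

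let-7 microRNAs bind messenger RNAs through their seed, bases 2 to 8, and lower their stability and translation. LIN28A and LIN28B bind let-7 precursors and block their maturation, so LIN28 and let-7 restrain each other. HMGA1 and HMGA2 are small chromatin proteins that bend AT-rich DNA, the IGF2BP proteins bind messenger RNAs such as Igf2 and protect or localise them, and MYCN is a growth-promoting transcription factor of the Myc family. Most of these genes are known for high levels in the embryo and a fall around or after birth.

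The seed and its matches in the targets show why the genes are grouped. RefSeq (GRCm38.p6) lists 10 mature let-7 sequences when products of the 3′ arm are left out, and 9 of them share the seed GAGGUAG. Some of them are written 5′ to 3′ with bases 2 to 8 in capitals, and the last of them is the one that departs from the shared seed. They lie at chr13:48538239-48538260 (minus strand), chr13:48536078-48536099 (minus), chr10:122985698-122985719 (minus) and chr3:140028281-140028304 (plus).
let-7a: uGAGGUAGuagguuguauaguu
let-7d: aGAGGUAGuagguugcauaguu
let-7i: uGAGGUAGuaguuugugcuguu
let-7j: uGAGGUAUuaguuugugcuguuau

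The longest annotated 3′ UTR of each gene (GENCODE M21, GRCm38) was searched on its own strand for CTACCTC, the letters that pair with the shared seed. Of the 8 genes, 7 held a match, 17 matches in all, against 9.02% of 21007 genes with an annotated 3′ UTR. Hmga2, Igf2bp1 and Lin28b held 4 each, and 3 or more matches occurred in 0.152% of genes. Lin28a held 2, and Hmga1, Igf2bp2 and Igf2bp3 held 1 each. Mycn held none, but had 2 copies of TACCTCA, which pairs with all but the last base of the seed and ends in an A, and which 9.78% of genes carry, including those where it overlaps CTACCTC. Since the genes were picked as let-7 targets, these counts describe the choice. The 3′ UTR stretches of the genes whose level changed are given on the gene's strand, with the match in capitals. A final a in lower case extends the match by 1 base.
Hmga2, chr10:120364224-120364246: gccgacattcaatttCTACCTCa
Hmga2, chr10:120362987-120363009: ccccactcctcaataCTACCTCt
Hmga2, chr10:120362549-120362571: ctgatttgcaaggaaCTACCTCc
Hmga2, chr10:120361691-120361713: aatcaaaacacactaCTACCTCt
Igf2bp1, chr11:95961778-95961800: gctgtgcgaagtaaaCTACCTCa
Igf2bp1, chr11:95959357-95959379: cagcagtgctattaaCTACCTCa
Igf2bp1, chr11:95958763-95958785: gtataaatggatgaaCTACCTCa
Igf2bp1, chr11:95958140-95958162: acttttggttttaatCTACCTCt
Igf2bp2, chr16:22059473-22059495: acacacaaataaaagCTACCTCa
Igf2bp3, chr6:49086787-49086809: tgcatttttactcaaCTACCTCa

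Those of 2 genes whose level did not pass the test, 1 match of Hmga1 and both TACCTCA copies of Mycn, are shown in the same way. TACCTCA is not particular to Mycn: Hmga2 and Igf2bp1 held 4 copies each, Igf2bp2 2 and Igf2bp3 1, counting those that overlap CTACCTC.
Hmga1, chr17:27563277-27563299: tcctctgttcacaaaCTACCTCt
Mycn, chr12:12936499-12936521: ctaagtactgtaagaaTACCTCA
Mycn, chr12:12936128-12936150: ttagagcactttgaaaTACCTCA

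The libraries held 10462737 to 22980554 counted reads. Levels are given as CPM, the share of counted reads scaled to a common library size by TMM, a factor that evens out library composition. At this depth 3 counts in a library correspond to 0.128 to 0.296 CPM. The sort label was checked against markers: Tcf21, the driver gene and a fibroblast marker, averaged 292 CPM in the P2 window and 288 CPM in the P10 window. Th, a marker of sympathetic neurons, had no count in any library. Of the 8 genes, 6 passed edgeR's filter on low counts and were tested among 16170 genes, while Lin28a and Lin28b did not pass. In bulk RNA, fewer cells that express a gene and less RNA per cell cannot be told apart.

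**Figure D1:**
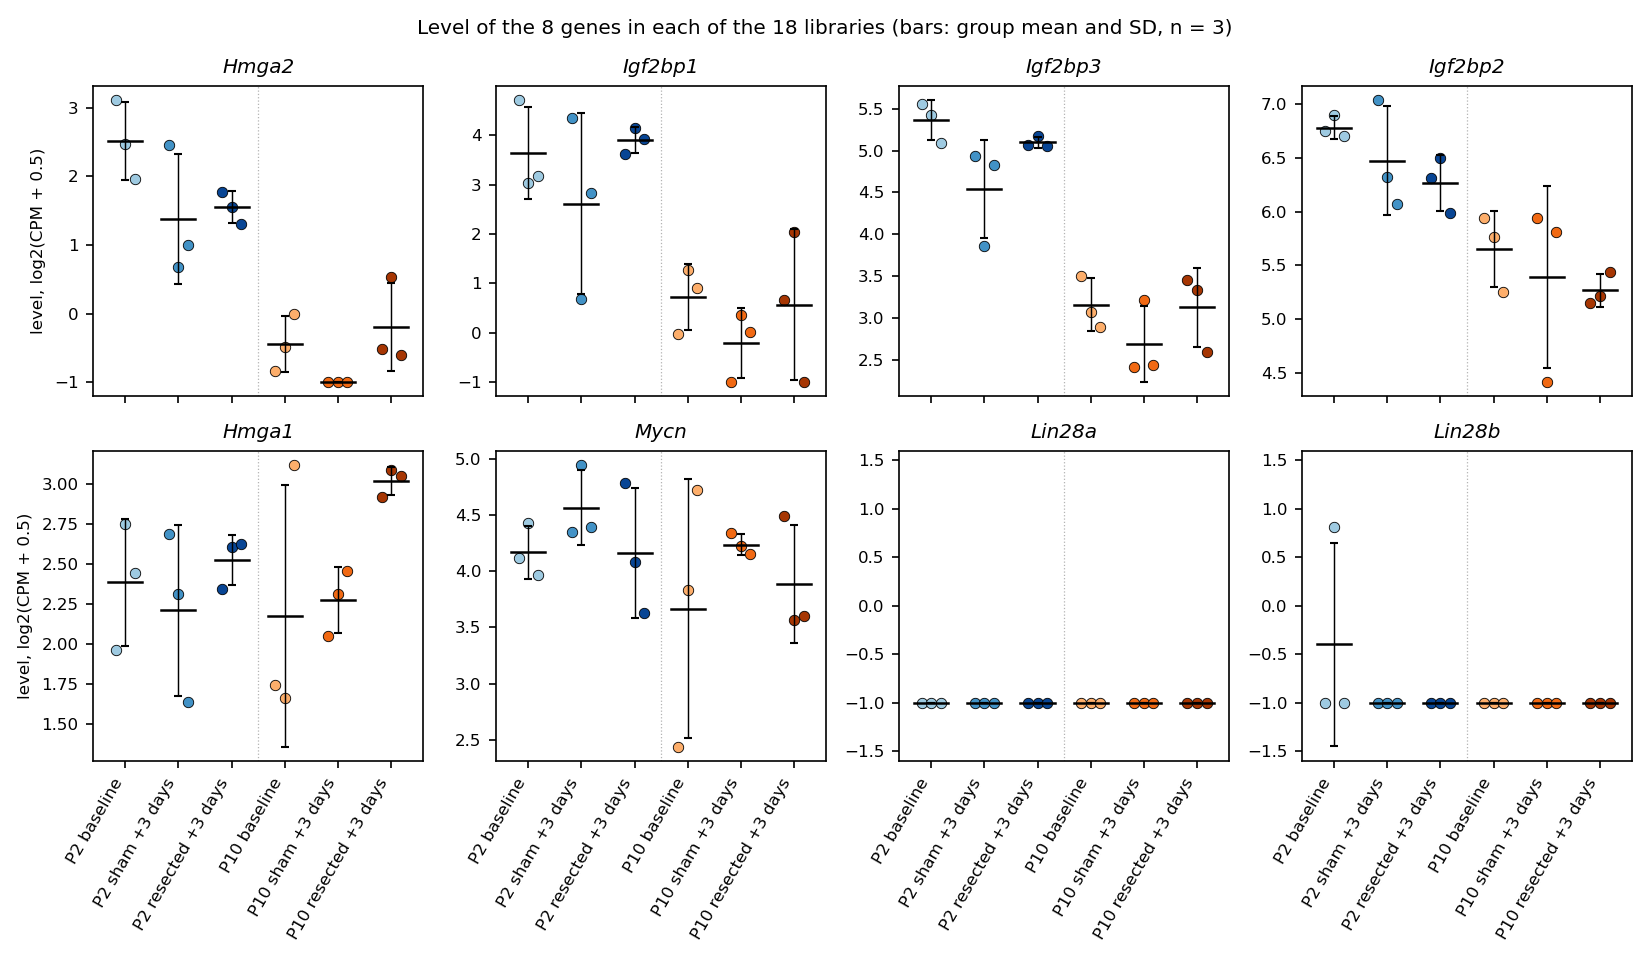
Level of the 8 genes as log2(CPM + 0.5) in each of the 18 libraries, by group, with the group mean and SD (n = 3). Blue points are the P2 window and orange points the P10 window. For Hmga2, Igf2bp3 and Igf2bp2 every orange point lies below every blue point, while for Hmga1 and Mycn the points overlap. All Lin28a points and all but 1 Lin28b point lie at the value of a library without counts.

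The 3 Igf2bp genes and Hmga2 were lower in the P10 window, and Hmga1 and Mycn were not shown to change. Of the 8 genes, 4 were called lower at P10 by edgeR's quasi-likelihood test (adjusted p under 0.05 over all genes tested), where 6.39% of all genes tested were called lower and 13.5% in either direction (7.11% higher). Every P10 library lay below every P2 library for 3 of the 8, Hmga2, Igf2bp2 and Igf2bp3, which was so for 1.36% of genes tested. None of the 8 was called higher. Because the 8 genes were chosen with earlier results known, these shares describe them and do not test them as a set.

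Igf2bp3 (chr6:49085223-49214957, minus strand) encodes an mRNA-binding protein that is best known from the embryo and from tumours. Its level was 46.7, 42.6 and 33.7 CPM in P2 baseline, 30.1, 14.1 and 27.8 CPM in P2 sham +3 days, and 33.0, 35.5 and 32.8 CPM in P2 resected +3 days. The P10 values were 10.9, 7.92 and 6.91 CPM at baseline, 4.84, 8.80 and 4.90 CPM after sham surgery, and 10.5, 9.60 and 5.52 CPM after resection. The highest P10 library stood below the lowest P2 library, P2 sham +3 days replicate 2. The mean fell from 32.9 ± 9.23 CPM (SD, n = 9) to 7.76 ± 2.34 CPM (SD, n = 9). The fitted change was -2.07 ± 0.21 on the log2 scale (SE, edgeR adjusted p = 4.76e-06), a 4.19-fold lower level. Igf2bp3 alone was called lower in each of the 3 single comparisons of P10 with P2 as well: by -2.26 ± 0.37 at baseline (edgeR adjusted p = 0.002), -1.96 ± 0.37 after sham surgery (edgeR adjusted p = 0.00558) and -1.98 ± 0.37 after resection (edgeR adjusted p = 0.013). The last call was lost without P2 resected +3 days replicate 2 or 3 or P10 resected +3 days replicate 3 (edgeR adjusted p up to 0.11). The sham call was lost when only the 2 sham groups were fitted (edgeR adjusted p = 0.137). Exons of Igf2bp3 share 18.7% of their bases with Malsu1 on the opposite strand, and reads there were left out of the unstranded counts.

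Igf2bp1 (chr11:95957163-96005940, minus strand) encodes the family member known for stabilising Myc and other growth transcripts. It measured 25.7, 7.72 and 8.59 CPM in P2 baseline, 19.8, 1.11 and 6.59 CPM in P2 sham +3 days, and 11.8, 17.2 and 14.7 CPM in P2 resected +3 days. In the P10 window it measured 0.485, 1.93 and 1.38 CPM at baseline, 0, 0.776 and 0.519 CPM after sham surgery, and 1.09, 3.62 and 0 CPM after resection. The windows overlapped through P2 sham +3 days replicate 2, which was lower than 3 of the P10 libraries. Igf2bp1 fell by 3.69 ± 0.73 on the log2 scale between the windows (SE, edgeR adjusted p = 0.00216), with means of 12.6 ± 7.57 CPM and 1.09 ± 1.14 CPM (SD, n = 9 each). At each single stage the P10 and P2 libraries did not overlap, yet no single comparison passed (edgeR adjusted p = 0.131, 0.0838 and 0.372 for baseline, sham and resected libraries). The 3 single changes were -3.46 ± 1.24, -4.41 ± 1.32 and -3.20 ± 1.22 (log2, SE). With 1 library left out they ran from -3.93 to -2.68, from -5.09 to -3.15 and from -4.65 to -2.61. The sham change was called without P2 sham +3 days replicate 2 (-4.94, edgeR adjusted p = 0.0499). DESeq2 called the baseline and sham changes (adjusted p = 0.0236 and 0.00255), and edgeR without a filter on low counts called all 3 (edgeR adjusted p = 0.00113, 2.78e-05 and 0.00476).

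Igf2bp2 (chr16:22059009-22163299, minus strand), the family member that adult tissues also express, held the most counts of the 8 genes, 23684 in all. The P2 libraries held 107, 119 and 103 CPM at baseline, 131, 79.3 and 66.6 CPM after sham surgery, and 79.2, 90.2 and 63.0 CPM after resection. The P10 libraries held 60.9, 53.8 and 37.6 CPM at baseline, 61.0, 20.8 and 55.5 CPM after sham surgery, and 35.0, 36.5 and 42.8 CPM after resection. The windows did not overlap, but the highest P10 library and the lowest P2 library lay close together. The decrease was the smallest of the 4 called genes, -1.05 ± 0.20 on the log2 scale (SE, edgeR adjusted p = 0.0015), from 93.2 ± 23.5 CPM to 44.9 ± 13.8 CPM (SD, n = 9 each). Its 3 single changes were of like size, -1.11 ± 0.34, -1.01 ± 0.34 and -1.02 ± 0.34 (log2, SE), and none passed (edgeR adjusted p = 0.0754, 0.134 and 0.247). The sham change became -0.66 without P10 sham +3 days replicate 2. The baseline change was called by DESeq2 (adjusted p = 0.0347) and by edgeR without a filter (edgeR adjusted p = 0.0426), and the resected change when only its 2 groups were fitted (edgeR adjusted p = 0.0412).

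Hmga2 (chr10:120361275-120476469, minus strand), the chromatin gene with the best known let-7 sites, was near its detection limit in the P10 window. The P2 libraries measured 8.15, 5.02 and 3.41 CPM at baseline, 5.02, 1.11 and 1.5 CPM after sham surgery, and 2.93, 2.44 and 1.98 CPM after resection, 639 counts in all. The P10 libraries measured 0.0607, 0.214 and 0.493 CPM at baseline, 0 CPM in all 3 sham libraries, and 0.199, 0.953 and 0.155 CPM after resection, 31 counts in all. The windows did not overlap. The mean level was 15.2-fold lower in the P10 window (3.51 ± 2.23 against 0.231 ± 0.314 CPM, SD, n = 9 each), and the fitted change was -5.15 ± 0.70 (log2, SE, edgeR adjusted p = 0.000136), which depends on the prior count because a group held no counts. Without P10 resected +3 days replicate 2 the P10 mean was 0.140 CPM and the level 25-fold lower. At baseline Hmga2 fell by 4.44 ± 1.11 (log2, SE, edgeR adjusted p = 0.034), and this call was lost when any 1 of the 6 libraries was left out (edgeR adjusted p from 0.0527 to 0.142). It was also lost without a filter on low counts (0.0613), with the replicate number as a block (0.0521) and when only the baseline groups were fitted (0.0686, all edgeR adjusted p). After sham surgery it was at least 48.0-fold lower at P10 (edgeR adjusted p = 0.00397), taking 3 counts over the group as the limit and the P2 mean as exact. That bound became 24.6 without P2 sham +3 days replicate 1, 31.1 without P10 sham +3 days replicate 1 and 30.1 without P10 sham +3 days replicate 3. The sham call was lost when only the 2 sham groups were fitted (edgeR adjusted p = 0.121). After resection the change was -2.47 ± 1.01 and did not pass (log2, SE, edgeR adjusted p = 0.452), although the libraries did not overlap.

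In all, 2 of the 8 genes (Hmga2 and Igf2bp3) were called lower at baseline and 2 (the same genes) after sham surgery, and 1 (Igf2bp3) after resection. The shares of all genes tested called lower were 1.68%, 1.65% and 0.235%. Libraries without overlap, lower at P10, were found for 4, 5 and 4 of the 8 genes, against 12.1%, 7.61% and 12.7% of genes tested. Since the window comparison is the mean of these 3 comparisons, it is not independent of them. In a two-sided exact permutation test of the mean log2(CPM + 0.5), with libraries exchanged between ages within baseline, sham and resected groups (8000 arrangements), Hmga2, Igf2bp1, Igf2bp2 and Igf2bp3 each reached the smallest p the design allows, 0.00025. The differences were -2.36, -3.02, -1.07 and -2.01.

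**Figure D2:**
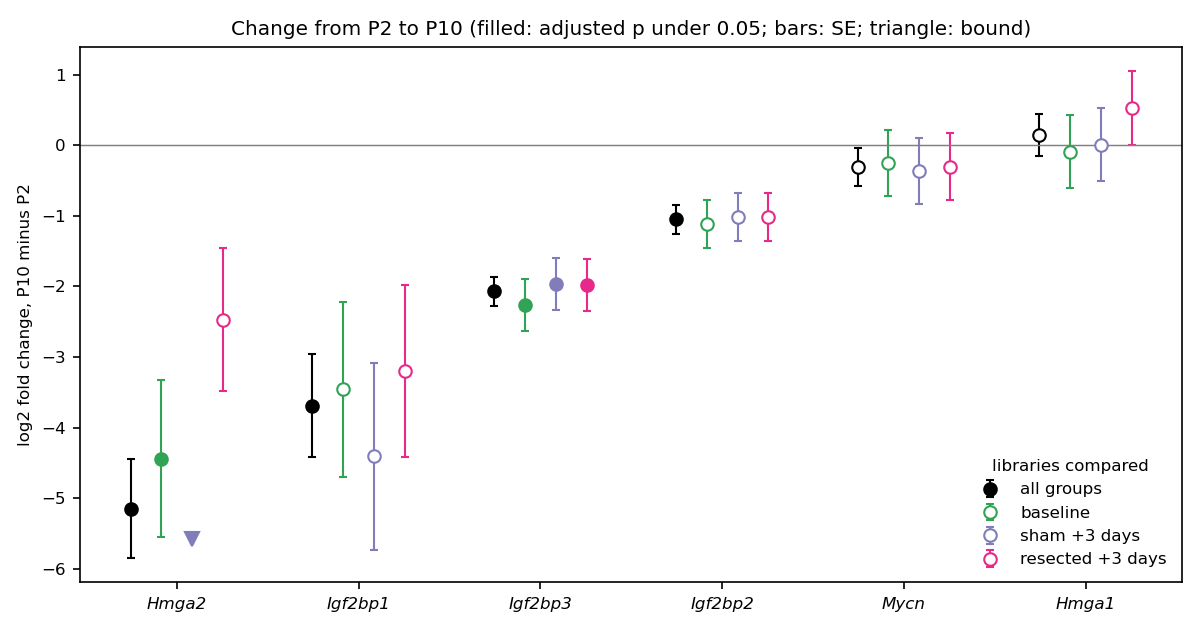
Change from P2 to P10 of the 6 tested genes (log2 fold change, y axis) over all groups and within baseline, sham and resected libraries. Filled circles had an edgeR adjusted p under 0.05, and bars are SE. The triangle is the bound of Hmga2 after sham surgery, at least 48.0-fold lower with the P2 mean taken as exact. Hmga2, Igf2bp1, Igf2bp3 and Igf2bp2 lie below 0 in each comparison, and Mycn and Hmga1 near 0 with error bars of about the size of the change or larger.

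Mycn (chr12:12936093-12941914, minus strand) overlapped between the windows. It measured 16.8, 21.0 and 15.1 CPM in P2 baseline, 19.9, 30.3 and 20.5 CPM in P2 sham +3 days, and 27.0, 16.4 and 11.9 CPM in P2 resected +3 days. At P10 it measured 4.91, 13.8 and 25.9 CPM at baseline, 19.7, 18.2 and 17.3 CPM after sham surgery, and 21.9, 11.3 and 11.7 CPM after resection. The P10 baseline libraries alone spanned most of the range of the gene. The change between the windows was -0.30 ± 0.27 (log2, SE, edgeR adjusted p = 0.515), with a 95% interval from -0.87 to 0.27 that includes both no change and a moderate decrease. The exact permutation p was 0.182.

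Hmga1 (chr17:27556497-27563674, plus strand), the sister gene of Hmga2, gave 3.41, 6.23 and 4.94 CPM in P2 baseline, 5.94, 4.47 and 2.61 CPM in P2 sham +3 days, and 4.57, 5.60 and 5.67 CPM in P2 resected +3 days. It gave 2.85, 2.68 and 8.19 CPM in P10 baseline, 3.65, 4.46 and 5.0 CPM in P10 sham +3 days, and 7.06, 8.01 and 7.77 CPM in P10 resected +3 days. Its window change was 0.15 ± 0.30 (log2, SE, edgeR adjusted p = 0.813), with a 95% interval from -0.49 to 0.78. After resection its 3 P10 libraries lay above the 3 P2 libraries, with a change of 0.53 ± 0.52 (log2, SE, edgeR adjusted p = 0.944). The sign of the window change turned without P10 baseline replicate 3, to -0.09. Of its 75-base read windows, 81.1% also occur in Hmga1b, a near-identical copy that held 9 counts in all. Reads that fit both genes were left out of the deposited counts, so the level of Hmga1 is uncertain and understated.

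Lin28a (chr4:134003330-134018841, minus strand) had 0 counts in all 18 libraries, which allows a level of up to 0.00916 CPM over the libraries together. Lin28b (chr10:45376620-45486395, minus strand) had 27 counts, all in P2 baseline replicate 2 (1.26 CPM), and none in the other libraries. Over the 9 P10 libraries the absence of counts allows up to 0.0199 CPM. Neither gene passed the filter on low counts, and the exact permutation p of Lin28b between the windows was 1. These limits, like those of Hmga2, cover counting error only, because PCR copies of a molecule are counted as separate reads.

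Per kilobase of exon the mean over the 18 libraries was 9.32 CPM for Igf2bp2, 5.46 CPM for Mycn and 2.49 CPM for Igf2bp3. It was 0.706 CPM for Igf2bp1, 0.276 CPM for Hmga2, and 0.0077 CPM for Lin28b. Hmga1 was at 2.43 CPM per kilobase and cannot be placed in this order, because reads on the 81.1% of its read windows that Hmga1b shares were left out, and Igf2bp3 is understated through the 18.7% of its exon bases that Malsu1 shares. In the P2 window Igf2bp3 was at 4.04 and Igf2bp1 at 1.30 CPM per kilobase, and in the P10 window they were at 0.951 and 0.113 CPM per kilobase. In both windows Igf2bp2 was the highest of the family, at 12.6 and 6.06 CPM per kilobase.

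The 4 groups without resection can be ordered by age at collection, from P2 baseline and P2 sham +3 days to P10 baseline and P10 sham +3 days. Along this order the mean of Igf2bp3 was 41.0, 24.0, 8.56 and 6.18 CPM, and that of Hmga2 5.53, 2.54, 0.256 and 0 CPM. Igf2bp1 averaged 14.0, 9.18, 1.26 and 0.432 CPM, and Igf2bp2 109.8, 92.3, 50.7 and 45.8 CPM. Between neighbours in this order edgeR called 0 of the 8 genes in each of the 3 steps. At an unadjusted p under 0.05 there was 1 gene between the P2 groups (Igf2bp3, lower in all 3 sham libraries, edgeR adjusted p = 0.642), 4 between P2 sham +3 days and P10 baseline, and 1 between the P10 groups (Hmga2, edgeR adjusted p = 0.401). The shares of all genes at this unadjusted level were 7.6%, 14.9% and 7.4%. DESeq2 called 0, 2 and 0 of the 8, the 2 being Hmga2 and Igf2bp3, and 1.09%, 5.9% and 1.01% of all genes. The middle step of Igf2bp3 was -1.48 ± 0.36 (log2, SE, edgeR adjusted p = 0.051), and it was called without P2 sham +3 days replicate 2 or without P10 baseline replicate 1. In this step all 3 same-numbered pairs of libraries deviated together (r = 0.378, 0.146 and 0.151), and with the replicate number as a block Igf2bp3 was called (-1.51 ± 0.35, log2, SE, edgeR adjusted p = 0.04). Without a filter on low counts Igf2bp1 was called in this step (-2.79 ± 0.77, log2, SE, edgeR adjusted p = 0.0221), and Igf2bp3 was not (0.0814). The shares of all genes called by edgeR in these steps were 0%, 1.32% and 0.00618%. Sham surgery and 3 days of growth cannot be told apart in the first and last step. Age and surgery cannot be told apart in the middle step either, because the P10 baseline pups were un-manipulated.

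Resection against sham surgery was the comparison of the injury itself, and at neither age did edgeR call any of the 8 genes. No gene of all 16170 was called at either age, and at an unadjusted p under 0.05 there were 4.51% of genes at P2 and 4.09% at P10. At P2 the changes of the 6 tested genes ran from -0.35 ± 0.47 for Mycn to 0.66 ± 1.12 for Igf2bp1 (log2, SE, resected minus sham), and none had an unadjusted p under 0.05 in edgeR or an adjusted p under 0.05 in DESeq2, which called 0.2% of all genes. The 3 resected libraries of Igf2bp3 (33.0, 35.5 and 32.8 CPM) all lay above the 3 sham libraries, without overlap, which was so in either direction for 8.47% of genes. That change was 0.49 ± 0.35 (log2, SE, edgeR adjusted p = 1). For Igf2bp1 the 95% interval of the P2 change ran from -1.69 to 3.02, which leaves room for a large change either way. At P2 all 7 genes of a macrophage marker list had a positive change from sham to resected libraries (median 1.62, log2). Of 12 proliferation genes 9 had a negative change (median -0.1), and no gene of these lists was called.

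At P10, Hmga2 had counts in each resected library (4, 15 and 2 counts) and none in the sham libraries. Its mean after resection, from 21 counts, was 8.24-fold the level of 3 counts over the sham group, taken as the limit. This ratio takes the resected mean as exact. It was 3.35 without P10 resected +3 days replicate 2, 5.33 without P10 sham +3 days replicate 1 and 5.16 without P10 sham +3 days replicate 3. The difference between resected and sham libraries was not called (edgeR unadjusted p = 0.000624 and adjusted p = 0.626). The DESeq2 adjusted p was 0.074, where 0.206% of all genes were called. P10 baseline also held counts (1, 4 and 5) where P10 sham +3 days held none, so the comparisons of these groups turn on the same 3 sham libraries. Hmga1 was at 7.06, 8.01 and 7.77 CPM after resection, above its 3 sham libraries, with a change of 0.80 ± 0.53 (log2, SE, edgeR adjusted p = 1). Libraries without overlap in either direction were found for 8.68% of genes. Marker lists were set beside the same P10 groups, and edgeR called none of their genes. All 12 proliferation genes had a positive change from sham to resected libraries (median 1.18, log2). So did all 7 macrophage markers (median 1.30) and all 5 epicardial markers (median 3.15), against a median of 0.02 for all genes. The endothelial median was 1.74 and the erythroid median 1.34, each with 1 of 5 genes negative. The cardiomyocyte, mural and fibroblast medians were 0.39, 0.04 and -0.03. The summed proliferation level was 182 to 288 CPM in sham and 235 to 502 CPM in resected libraries. The macrophage sum was 61.3 to 221 and 42.7 to 809 CPM, and the epicardial sum 0 to 8.80 and 3.96 to 50.4 CPM. Each range overlapped between the groups. The part of these lists in the values of Hmga2 and Hmga1 was not tested. The difference between the resection effects at P10 and P2 was called for 0 of the 8 genes by edgeR and by DESeq2, which called 0% and 0.115% of all genes. An unadjusted p under 0.05 was found for Hmga2 only of the 6 tested (0.00214 in edgeR's model across all genes), and for 2.88% of all genes.

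Of 7 other high mobility group genes, 6 were called lower in the P10 window and none higher, where 6.39% of all genes were called lower. Their median change was -1.17 (log2) against -0.06 for all genes tested. Hmgb2, which bends DNA and is high in dividing cells, fell by 2.15 ± 0.18 (log2, SE, edgeR adjusted p = 8.08e-07), from 147 to 33.3 CPM. Hmgb3 fell by 1.72 ± 0.20, Hmgn2 by 1.22 ± 0.20 and Hmgn5 by 1.17 ± 0.32 (edgeR adjusted p of 2.03e-05, 0.000361 and 0.0214). Hmgb1 and Hmgn1 were called with smaller changes. Hmgn3 was not called (-0.04 ± 0.15, edgeR adjusted p = 0.906), and neither was Hmga1, also named a high mobility group gene. Within baseline, sham and resected libraries 1, 4 and 2 of the 7 were called, all lower, where 1.68%, 1.65% and 0.235% of all genes were called lower.

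Of 24 other let-7 targets that were tested, 5 were called lower and none higher, where 6.39% of all genes were called lower. Their median change was -0.40 (log2) against -0.06 for all genes. Trim71, a stem cell regulator with 4 seed matches, was not tested: it held 45 counts, all in the P2 window, of which 41 fell in P2 baseline replicate 3. Its P2 mean was 0.299 CPM, and 0.0246 CPM without that library. Rrm2, a ribonucleotide reductase subunit, fell by 2.34 ± 0.20 (log2, SE). Ccnd1, the cyclin that drives entry into S phase, fell by 1.08 ± 0.16 and its partner kinase Cdk6 by 0.82 ± 0.22 (log2, SE, edgeR adjusted p of 8.08e-07, 0.000192 and 0.0174 for Rrm2, Ccnd1 and Cdk6). Cdc25a was called with the smallest change (-0.55 ± 0.15). Myc, Hras, Nras, Igf1r and Insr did not pass, with Myc at 0.13 ± 0.34.

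Of 18 genes that make, load or degrade let-7, 2 were called lower and none higher, where 6.39% of all genes were called lower. Their median change was -0.22 (log2) against -0.06 for all genes. Hnrnpa1, which binds let-7 and other microRNA precursors, fell by 1.11 ± 0.15 and Syncrip by 0.60 ± 0.19 (log2, SE, edgeR adjusted p = 5.19e-05 and 0.0441). The terminal uridylyl transferases Tut4 and Tut7, through which LIN28A marks let-7 precursors for decay, were at -0.62 ± 0.36 and -0.37 ± 0.29 and did not pass, and neither did Dicer1 (-0.57 ± 0.29), Drosha (-0.14 ± 0.19) nor Dis3l2 (0.06 ± 0.22). The 11 rows of let-7 precursor genes held 1 count in all, so the level of let-7 cannot be read from these libraries.

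Of the Myc network around Mycn, 1 of 11 genes was called lower and 1 higher, against 6.39% and 7.11% of all genes. Mxd3, a partner of MAX that is high in dividing cells, fell by 2.26 ± 0.31 (edgeR adjusted p = 9.1e-05), and Mxi1, a MAX partner that opposes Myc, rose by 1.00 ± 0.15 (log2, SE, edgeR adjusted p = 0.000203), from 40.5 to 80.9 CPM. Among 5 transcripts known to be bound or induced by the members, H19, the imprinted noncoding RNA that binds IGF2BP proteins and let-7, fell by 1.80 ± 0.26 (log2, SE, edgeR adjusted p = 0.000145), from 705 to 225 CPM. Igf2, after which the IGF2BP family is named, did not pass (-0.30 ± 0.22, edgeR adjusted p = 0.407), and neither did Actb, Cd44 or Ptgs2.

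All 12 genes of a proliferation list were called lower in the P10 window, where 6.39% of all genes were called lower. Their median change was -2.41 (log2). The list was chosen with earlier results known, and the study names its Cdk1, Ccna2, Ccnb1 and Ccnb2 as higher at P2 than at P10. This count therefore describes the choice. Mki67 fell by 3.23 ± 0.62 and Top2a by 2.76 ± 0.36 (log2, SE, edgeR adjusted p = 0.00166 and 4.73e-05). The summed level of the list was 1009 to 1774 CPM in the P2 libraries and 182 to 514 CPM in the P10 libraries, without overlap, and its part in the changes of Hmga2 and the Igf2bp genes was not tested. Rrm2 belongs to this list and to the let-7 targets.

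**Figure D3:**
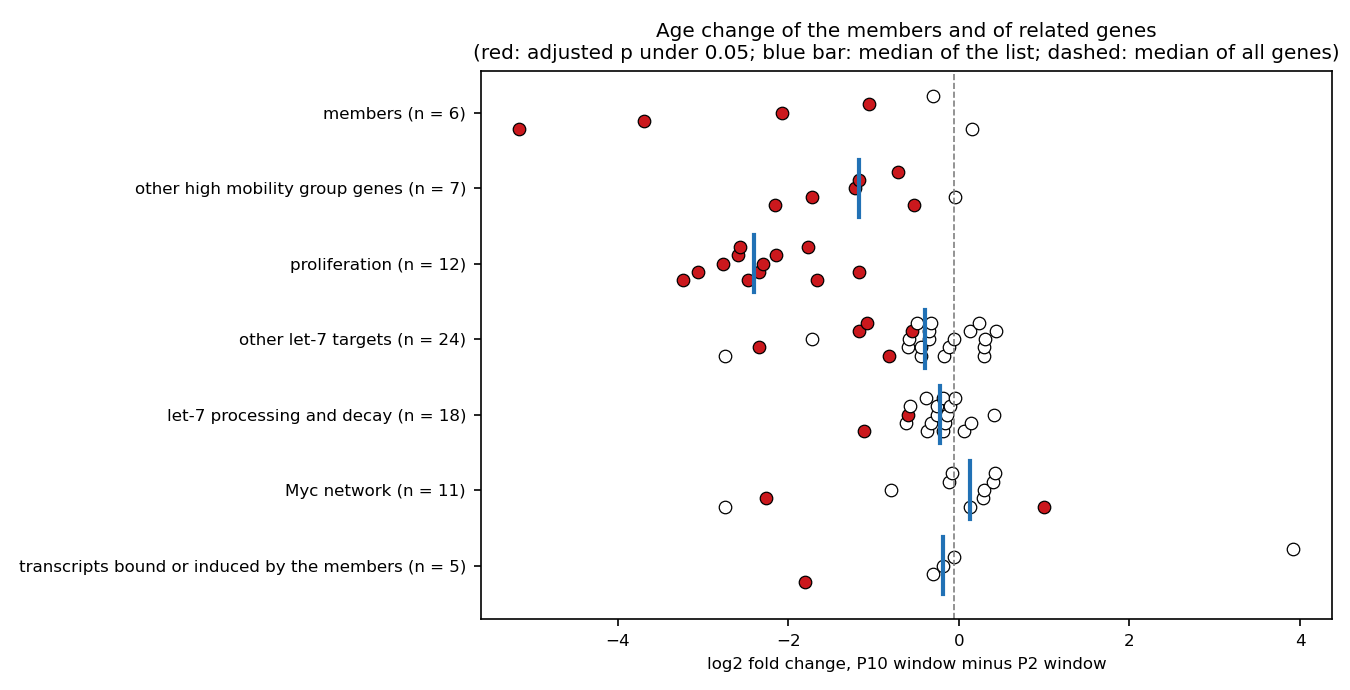
Change from the P2 to the P10 window (log2 fold change, x axis) of each tested gene of 6 lists and of the members, 1 circle a gene, where red is an edgeR adjusted p under 0.05. Blue bars mark the median of a list and the dashed line the median of all genes, -0.06. All 12 proliferation genes and 6 of 7 other high mobility group genes are red and left of the line, while most genes of the let-7 processing list lie close to it.

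The genes most like each member over the 18 libraries are given by Pearson's r of log2 CPM, as a description. For Igf2bp3 they were Rrm2 (r = 0.966), Mcm4 (0.960) and Rbl1 (0.957), and for Igf2bp1 Ncaph (0.923), Kntc1 (0.908) and Mybl2 (0.907), genes of DNA replication, chromosome segregation and the cell cycle. For Hmga2 they were the pseudogene Gm49328 (0.957), Smad6 (0.940) and Anln (0.939), and for Igf2bp2 Nexmif (0.889), Tia1 (0.888) and Slf1 (0.886). The libraries of these genes fall into the 2 windows. With the group means removed, r ranged from 0.527 to 0.808 for these 12 pairs. For Mycn the closest were 6030458C11Rik (0.859), Pradc1 (0.821) and Gdf9 (0.797), and for Hmga1 Cd72 (0.723), Dusp23 (0.712) and Kcnj15 (0.703).

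The number of seed matches was set beside the age change for the other genes tested, as a description without a test. The median window change was -0.02 (log2) for 12199 genes without a match, -0.05 for 1241 genes with 1 match, -0.07 for 149 genes with 2 and -0.26 for 23 genes with 3 or more. The genes with more matches also had longer 3′ UTRs, with medians of 1065, 2185, 3550 and 4453 bases. Of the 23 genes with 3 or more matches, none was called in either direction by edgeR, against 6.90% lower and 8.18% higher among genes without a match. Nr6a1, with 8 matches, was at 0.24 ± 0.80, Mcf2l and Nudt12, with 7 each, at 1.47 ± 0.57 and -1.20 ± 1.13, and Trim6, with 6 matches, at -0.90 ± 0.45 (log2, SE). Hmga2 and Igf2bp1, at -5.15 and -3.69 (log2), had lower values than all 23 of these genes, of which Slc22a23 was the lowest (-2.15 ± 1.08).

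**Figure D4:**
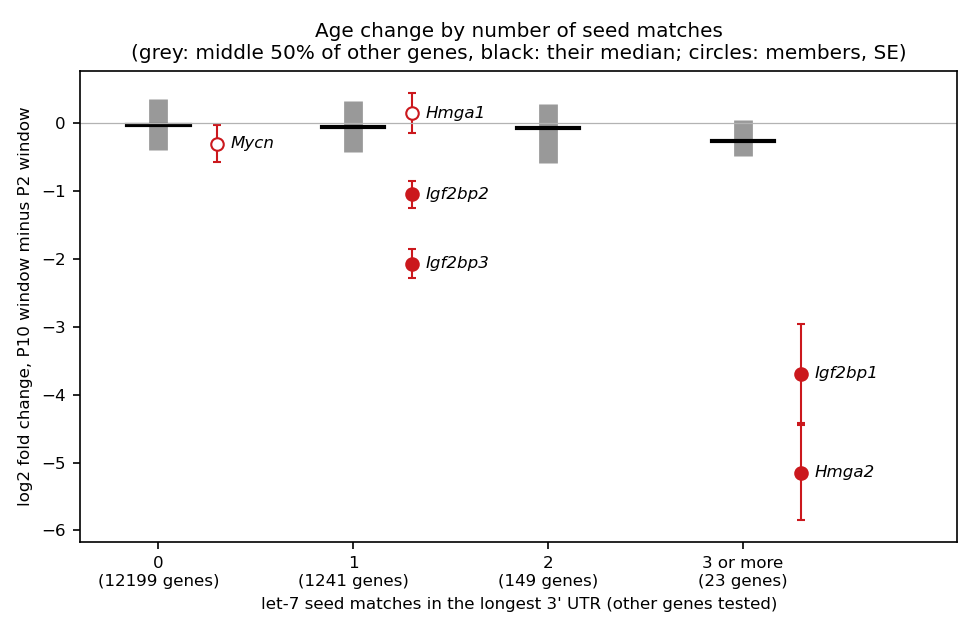
Change from the P2 to the P10 window (log2 fold change, y axis) by the number of CTACCTC matches in the longest 3′ UTR (x axis). Grey bars span the middle 50% of the other genes tested and black lines their median, from -0.02 to -0.26, and red circles are the members with SE (filled: edgeR adjusted p under 0.05). Hmga2 at -5.15 and Igf2bp1 at -3.69 lie far below the bar of genes with 3 or more matches, and Hmga1, with 1 match, lies at 0.15.

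Markers of other cells differed with age as well, where 6.39% of all genes were called lower and 7.11% higher. Of the cardiomyocyte list 4 of 7 genes were called lower at P10 (Myh7, Tnnt2, Actc1 and Myl2), with a summed level of 270 to 1296 CPM in P2 and 137 to 672 CPM in P10 libraries. Of the mural cell list 3 of 6 were called higher (Rgs5, Kcnj8 and Myh11), with sums of 293 to 777 and 475 to 1311 CPM. Of 7 macrophage markers 1 was called higher (Itgam), with sums of 5.29 to 322 and 12.1 to 809 CPM, and of 5 erythroid markers 1 was called higher (Hba-a1). Of 6 fibroblast markers 2 were called higher (Dcn and Lum), while 0 of 5 endothelial markers and 0 of 5 epicardial markers were called by edgeR. Of the Schwann and neural crest list 1 of 5 genes was tested and none called. The part of these cells in the members' changes was not tested.

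A pair of libraries lay at the end of their window for several members, in no case beyond Dixon's 95% limit for 9 values. P2 sham +3 days replicate 2 was the lowest P2 library for Hmga2, Igf2bp1 and Igf2bp3, and had the highest erythroid (237 CPM) and epicardial (20.9 CPM) sums of the P2 window, with a proliferation sum of 1246 CPM. P10 resected +3 days replicate 2 was the highest P10 library for Hmga2 and Igf2bp1, with the highest macrophage sum of all libraries (809 CPM) and a proliferation sum of 502 CPM, near the top of the P10 range. Without both, a choice made after the values were seen, the same 4 genes were called lower in the P10 window: Hmga2 by -5.68 ± 0.73, Igf2bp1 by -4.34 ± 0.71, Igf2bp2 by -1.06 ± 0.23 and Igf2bp3 by -2.17 ± 0.22 (log2, SE). The edgeR adjusted p-values were 0.000189, 0.000828, 0.00678 and 1.03e-05. This refit tested 17114 genes, and the share of all genes called in it was not computed. Its counts of calls therefore stand without a background, and the 6.39% given above belongs to the fit of all 18 libraries. The calls of the lists became 12 of 12 for proliferation, 5 of 7 for the high mobility group genes, 5 of 24 for the let-7 targets, 1 of 18 for the let-7 processing genes and 1 of 7 for the cardiomyocyte markers, all lower. They became 0 of 7 for the macrophage markers, where the call of Itgam was lost, 2 of 6 for the mural markers and 2 of 5 for the erythroid markers, all higher. The counts of calls of the Myc network (1 lower and 1 higher), of the transcripts bound or induced by the members (1 lower), of the fibroblast markers (2 higher) and of the endothelial, epicardial and Schwann lists (0) were the same in number.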

How the data were processed

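Bulk RNA sequencing of 18 libraries was analysed. Per the labels and the methods of the study, the authors trimmed single-end reads with fastp 0.20.0, mapped them with STAR 2.7.0f to GRCm38.p6 with GENCODE M22, and counted reads on exons with featureCounts (Subread 1.6.4) without strand. The deposited values are raw counts per gene symbol. Multi-mapping reads and reads on 2 or more overlapping genes are dropped under the default settings of this counter. Gene positions and 3′ UTRs were taken from GENCODE M21 on the same build.

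The test was edgeR's quasi-likelihood F-test (edgeR 4.0.16, R 4.3.3) after filterByExpr (minimum count 10, minimum total 15) and TMM scaling, with group means fitted to all 18 libraries, contrasts between them, and Benjamini-Hochberg adjustment over all genes tested. Calls are adjusted p-values under 0.05. DESeq2 1.42.0 was an alternative. The window fit was tested on simulated data. Replicates differed by more than sampling noise (mean chi-square per gene 37.0 to 326 over 18 pairs). Named genes are the members, the 3 genes most like each, and the largest called genes of each list; some list genes are counted but not reported here by name. The members and lists were chosen with earlier results of these data known.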

Additional observations from a re-analysis of the deposited data

Results flagged for a closer look

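Among the 9 libraries of the P2 window, 1 stood far from the others for Lin28b: P2 baseline replicate 2 measured 1.26 CPM (27 counts), and the other 8 had no count, so its gap to the next library was the whole range. Where all other values are 0, counts in any single library give this result, so the rate of about 1 in 20 groups that chance puts beyond this limit does not apply here. In all, 26 ends of 13 groups were examined. Whether these counts come from cells of 1 pup or from few starting molecules was not tested.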

How the results depend on the processing

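Between the windows the same 4 genes were called with DESeq2, RLE scaling, no filter, a replicate block, Hmga1 and its copies summed, and each library left out (all 18 fits), and the permutation tests kept their side of 0.05 under other pseudocounts and scaling. Calls among all genes were 2183 in the main fit, 3188 with DESeq2, 2199 with RLE scaling, 2759 with no filter and 2745 with a block. They were 2184 with summed copies and 1680 to 2987 without 1 library. RLE scaling and summed copies changed no count of called members in any comparison. Single comparisons were less stable. At baseline the 2 called genes became 4 with DESeq2, 3 without a filter (Hmga2 lost), 1 on the compared groups alone and 1 without any 1 library (1 to 1). Calls among all genes there moved from 709 to 1675, 1155 and 295, and to 264 to 1207 without 1 library. After sham surgery the 2 called genes became 3 with DESeq2, 3 without a filter and 0 on the compared groups alone (2 to 3 without 1 library). Calls among all genes there moved from 515 to 1284, 911 and 125, and to 312 to 416 without 1 library. After resection the 1 called gene became 2 without a filter and 2 on the compared groups alone, and 0 to 1 without 1 library. Between P2 sham +3 days and P10 baseline the count of 0 became 2 with DESeq2, 1 without a filter and 0 to 1 without 1 library. Calls among all genes there moved from 214 to 907 and 549, and to 65 to 442 without 1 library. The cause of these moves was not tested.

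No source says that same-numbered libraries are paired, and 15 of 45 such pairs deviated together with r over 0.1 (from -0.135 to 0.378). All 3 pairs did so for P2 sham +3 days with P10 baseline, P2 resected +3 days with P10 resected +3 days, and P10 baseline with P10 sham +3 days. With the replicate number as a block the baseline count became 1 (Hmga2 lost, edgeR adjusted p = 0.0521) and that between P2 sham +3 days and P10 baseline became 1 (Igf2bp3). Calls among all genes with the block were 1008 at baseline and 316 between P2 sham +3 days and P10 baseline, against 709 and 214 without it. The block changed no other count of called members.

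Signs turned only in changes that did not pass. Hmga1 after sham surgery, 0.01, became -0.01 with DESeq2, -0.01 with RLE scaling, -0.05 with the block and 0 on the compared groups alone. Without 1 library Hmga1 ran from -0.25 to 0.30 after sham surgery, -0.81 to 0.18 at baseline and -0.09 to 0.24 between the windows, Mycn from -0.92 to 0.17 at baseline and -0.68 to 0.08 after resection, and the P2 resection change from -0.42 to 0.91 for Hmga2 and from -0.44 to 0.09 for Igf2bp2. Depth limits Hmga2 at P10 (31 counts in 9 libraries), Lin28b and Lin28a.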
